A study of Mus musculus with 4 samples.

Results

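Ccl2, Ptx3 and Csf1 encode secreted proteins with which fibroblasts call in and sustain innate immune cells. They were followed in mouse embryonic fibroblasts, primary cells of the connective tissue of the embryo, after transfection of siRNA against eIF1A (labelled Si-eIF1A (X+18)) or of a negative control siRNA. The 3 genes are the rows of those symbols among 4878 genes in the table of normalised counts, and they were chosen by their values in this same contrast, between 2 knockdown and 2 control libraries. Their difference between the groups is therefore given as a description, with no test. All cells were at passages 5-8 and were transfected with Lipofectamine RNAimax, and the control cells received a transfection too. During translation initiation eIF1A binds the small ribosomal subunit and promotes its scanning towards the start codon, and the comparison asks which mRNA levels differ when it is depleted. Eif1a and Eif1ax, the genes of the factor, were not analysed here, so the depletion itself was not measured.

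Ccl2 (also called MCP-1) is a chemokine that draws monocytes out of the blood through the receptor Ccr2. Ptx3 is a long pentraxin, a soluble pattern recognition protein that binds microbes and complement C1q and is built into hyaluronan-rich matrix. Csf1 (M-CSF) is the growth factor on which most macrophages depend, and it acts through the receptor Csf1r. In fibroblasts exposed to TNF or interleukin-1 such genes are induced by the transcription factors NF-kB, AP-1 and C/EBP, and many mRNAs of this class are held at low levels by decay factors that bind AU-rich elements in the 3′ UTR.

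Libraries were made by bulk MARS-seq, which reads the 3′ ends of polyadenylated RNA. Whole reads recovered from the table came to 2152331 and 2352111 in knockdown libraries 1 and 2 and to 2182825 and 2595625 in control libraries 1 and 2. The log2 values correlated at 0.977 within the knockdown pair, at 0.972 within the control pair and at 0.910 to 0.932 between the groups. Whether the replicates are independent cultures is not in the labels, so p-values measure the spread between these libraries, which may be technical, and no label gives a batch. Fibroblast markers were present for 18 of 30 genes on a list of them, and their summed normalised counts were 19618 and 21112 in knockdown libraries against 41930 and 37353 in control libraries. Of these sums Vim alone gave 8437 and 10504 in knockdown and 20136 and 15531 in control libraries. Normalised counts summed over all genes were also lower in knockdown, at 1.74e+06 and 1.60e+06 against 2.15e+06 and 2.11e+06 in control libraries. Of 24 macrophage markers only Cd74 was in the table, with 29.1 and 24.5 normalised counts in knockdown libraries against 123 and 71.4 in control libraries, and none of 13 endothelial and 14 epithelial markers was analysed here. The macrophage genes Csf1r, Ptprc and Adgre1 were among those not analysed.

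Sequence around the start sites of Ptx3 and Csf1 is shown because both genes were higher after the knockdown and are textbook targets of inflammatory transcription factors. Ccl2 was higher too, but no RefSeq promoter entry for it was at hand, so its window is not shown. The windows run from 250 bases before to 50 bases after the start site given by RefSeq (GRCm38.p6), 5′ to 3′ on the gene's strand, at chr3:66219637-66219936 (plus strand) for Ptx3 and chr3:107760420-107760719 (minus strand) for Csf1. Capitals mark matches on either strand to a loose NF-kB (kappaB) pattern, GGG and CC around any 5 bases, and to TTNNGCAA, a C/EBP pattern.
Ptx3: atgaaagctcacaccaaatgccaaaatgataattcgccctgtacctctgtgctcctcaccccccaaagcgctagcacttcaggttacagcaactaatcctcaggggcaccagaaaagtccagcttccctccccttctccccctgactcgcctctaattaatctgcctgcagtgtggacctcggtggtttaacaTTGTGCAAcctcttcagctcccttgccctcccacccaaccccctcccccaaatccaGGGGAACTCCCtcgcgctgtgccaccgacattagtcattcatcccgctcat
Csf1: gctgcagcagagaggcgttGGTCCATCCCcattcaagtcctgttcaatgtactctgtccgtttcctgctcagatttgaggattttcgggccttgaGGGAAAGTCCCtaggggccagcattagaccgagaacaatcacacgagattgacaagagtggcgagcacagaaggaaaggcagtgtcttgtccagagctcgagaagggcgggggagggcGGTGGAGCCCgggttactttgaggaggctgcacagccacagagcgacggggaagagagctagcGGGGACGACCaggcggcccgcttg
The Ptx3 window held 2 overlapping kappaB matches between positions -1 and 10 from the start site and 1 C/EBP match at -57 to -50. The Csf1 window held 5 kappaB matches, of which those starting at -155 and -154 overlap, and no C/EBP match. The loose kappaB pattern was found in 70.4% of 4687 promoters of tested genes and in 50.8% of all 32851 promoters, so its presence sets neither gene apart. The C/EBP pattern was found in 7.87% and 10.8% of them. The stricter kappaB consensus, which matched both Ptx3 positions and the Csf1 position starting at -154, was found in 10.5% and 8.46%. A match describes the letters only. Neither window held the AP-1 pattern TGANTCA (4.35% and 7.81%) or the C/EBP-ATF pattern TGATGNAA (2.2% and 3.97%).

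Because MARS-seq reads lie at mRNA 3′ ends and AU-rich elements act there, the 3′ UTRs were also searched, in the transcript of longest 3′ UTR per gene (GENCODE M21, mm10). One window per gene is shown, with the heptamer TATTTAT or, in Ccl2, which had no heptamer, its single pentamer ATTTA in capitals.
Ccl2: atattaaacttATTTAacttattgatg
Ptx3: tgagaaaaccaTATTTATaccacaaagtg
Csf1: catactgccacTATTTATtgtgggccctg
They lie at chr11:82037207-82037233 (plus strand), chr3:66225629-66225657 (plus strand) and chr3:107742910-107742938 (minus strand), and their motifs begin 40, 435 and 232 bases after the stop codon. The 3′ UTRs measured 275 bases in Ccl2, 600 in Ptx3 and 2111 in Csf1, with 1, 2 and 4 pentamers. At least 1 heptamer was present in 26.2% of 4473 tested genes with an annotated 3′ UTR, whose median length was 1015 bases, and at least 1 pentamer in 67.3%. Csf1 also has annotated coding transcripts that end in 3′ UTRs of 259 and 145 bases without either motif. The counts per gene do not tell these ends apart.

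Ccl2 (ENSMUSG00000035385.5, mm10 chromosome 11, 82035571 to 82037453, plus strand) had 76.7 and 69.3 normalised counts in knockdown libraries 1 and 2, against 10.8 and 22.7 in control libraries 1 and 2. The groups did not overlap, and the lowest knockdown library was 3.05 times the highest control library. Group means were 73.0 ± 5.23 in knockdown and 16.8 ± 8.41 in control libraries (SD, n = 2 each), a log2 difference of 2.14 or 4.41-fold on the log2(normalised count + 1) scale used for all fold changes below. The knockdown libraries were within 1.11-fold of each other, whereas the control libraries were 2.10-fold apart. These values rest on 95 and 102 reads in knockdown and only 11 and 28 in control libraries. Exact 95% Poisson intervals, which cover counting error only, were 5.40 to 19.4 and 15.1 to 32.8 normalised counts for control libraries 1 and 2 and so overlapped. The ratio of summed reads scaled to the libraries was 4.19 (95% Clopper-Pearson counting interval 2.96 to 6.07). Such intervals, here and below, leave out the spread between libraries and are no test of genes chosen by their difference. Over all genes that spread exceeded counting error, with a chi-square per degree of freedom of 13.7 in the knockdown pair and 16.5 in the control pair.

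Ptx3 (ENSMUSG00000027832.5, chromosome 3, 66219910 to 66225805, plus strand) had 119 and 165 normalised counts in knockdown libraries 1 and 2, against 28.5 and 37.3 in control libraries 1 and 2. Both knockdown libraries again lay above both control libraries, the lowest 3.20 times the highest. Means were 142 ± 32.2 in knockdown and 32.9 ± 6.22 in control libraries, a log2 difference of 2.07 (4.2-fold), close to that of Ccl2. Here the knockdown libraries were the less alike pair on the count scale, at 1.38-fold apart against 1.31-fold in control. Reads numbered 148 and 243 in knockdown and 29 and 46 in control libraries, and their scaled ratio was 4.32 (3.37 to 5.61). The Poisson intervals of knockdown libraries 1 and 2, at 101 to 140 and 145 to 187 normalised counts, did not overlap.

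Csf1 (ENSMUSG00000014599.10, chromosome 3, 107741048 to 107760469, minus strand) had 688 and 721 normalised counts in knockdown libraries 1 and 2, against 335 and 299 in control libraries 1 and 2. It differed less than the other 2 genes but was the most even, with pairs 1.05-fold apart in knockdown and 1.12-fold in control. Means were 705 ± 23.8 in knockdown and 317 ± 25.4 in control libraries, a log2 difference of 1.15 (2.22-fold). With 852 and 1062 reads in knockdown and 340 and 368 in control libraries it was also the gene of most reads, and the scaled read ratio was 2.24 (2.06 to 2.45).

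**Figure D1:**
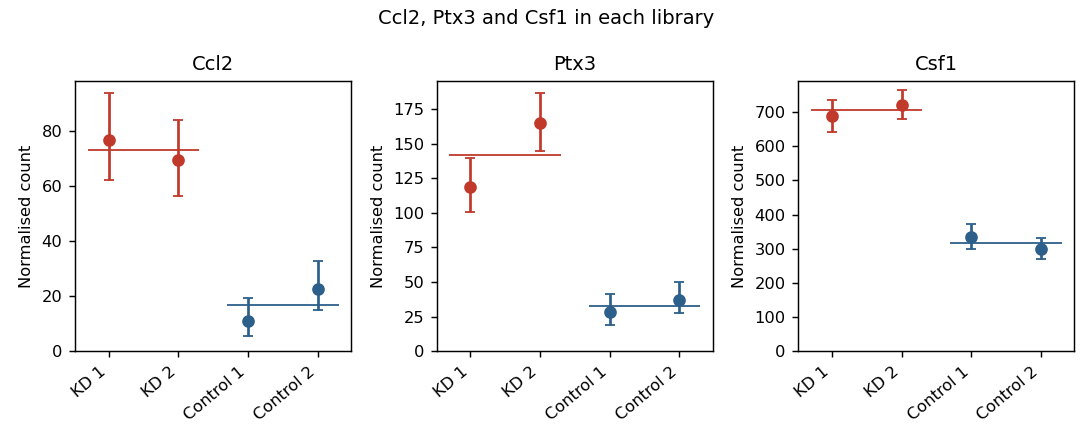
Normalised counts (linear axis from 0) of Ccl2, Ptx3 and Csf1 in the 2 knockdown (KD, red) and 2 control (blue) libraries; bars are exact 95% Poisson intervals for the reads of that library and horizontal lines are group means. In each gene both knockdown libraries lie above both control libraries, and the control libraries differ most as a ratio in Ccl2 (10.8 and 22.7, 2.1-fold).

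All 3 genes passed the filter of a mean value of at least 5, and each had over 5 normalised counts in every library. Groups that do not overlap with knockdown on top were found in 32.4% of the 4605 tested genes, and since the 3 genes were picked for their difference nothing follows from their belonging to these. Among all log2 differences, which had a median of -0.01 and 5th and 95th percentiles of -1.59 and 1.48, Ccl2 ranked 49, Ptx3 59 and Csf1 427 from the top. Ccl2 and Ptx3 thus lay beyond the 95th percentile and Csf1 did not, with 9.25% of genes above it. In these libraries the difference also moved with the level of a gene. With the genes cut into 4 equal classes of mean normalised count, its median was 0.31, 0.22, -0.11 and -0.37 from the lowest class to the highest. Ccl2 and Ptx3 were in the second class, with means of 41.5 to 140, where 22.8% of genes were called higher and 13.8% lower. Csf1 was in the highest class, where 12.1% of genes were called higher and 40.5% lower. The part of this trend in the values of the 3 genes was not tested.

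**Figure D2:**
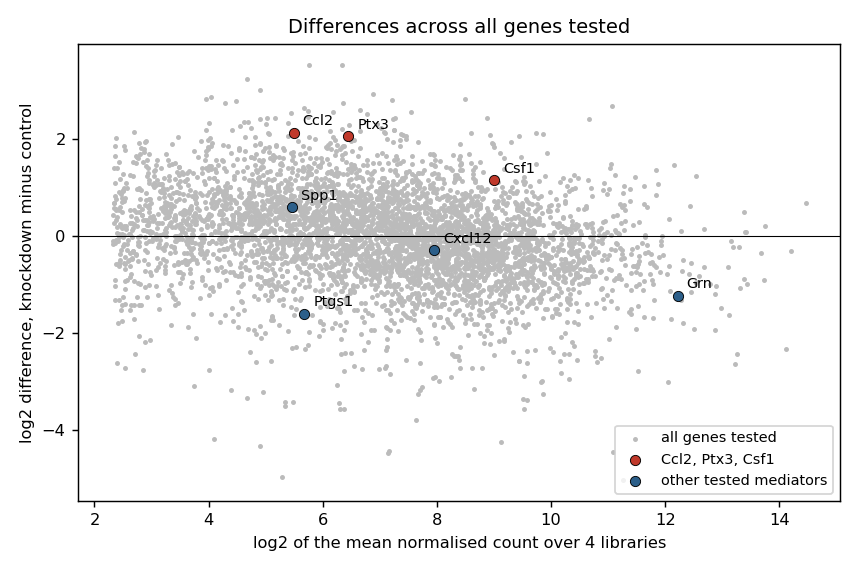
Log2 difference (knockdown minus control) against log2 of the mean normalised count over the 4 libraries, with a point for each of 4605 genes. Ccl2 and Ptx3 (red) lie at 2.14 and 2.07 near the upper edge of the cloud and Csf1 at 1.15, whereas Grn and Ptgs1 (blue) lie below 0 at -1.23 and -1.60.

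None of the other secreted mediators that could be tested was called higher. Of 63 cytokines, chemokines, other secreted mediators and cyclooxygenases on the list, 8 were in the table, and besides the 3 genes 4 could be tested, of which 2 fell, 0 rose and the other 2 missed the threshold (limma with Benjamini-Hochberg adjustment over all genes, adjusted p under 0.05). Across all genes 15.9% were called higher and 21.6% lower in knockdown. With so few tested genes, the median of -0.76 describes only these 4. edgeR and DESeq2 on the recovered reads also called 0 and 0 higher, and at an unadjusted p under 0.05 the numbers higher were 0 with limma, 0 with edgeR and 0 with DESeq2.

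Grn, which encodes the secreted growth factor progranulin, had 2760 and 2917 normalised counts in knockdown against 7416 and 5944 in control libraries. It fell 2.34-fold (adjusted p = 0.00035). Ptgs1, the constitutive cyclooxygenase of prostaglandin synthesis, had 22.6 and 27.2 against 71.8 and 82.8 in control libraries and fell 3.03-fold (adjusted p = 0.00113). Both falls lay well outside the range of the control pair. Cxcl12, a chemokine that holds leukocytes and stem cells in stromal niches, had 259 and 190 in knockdown against 251 and 293 in control libraries, and the groups overlapped (adjusted p = 0.374). Spp1 (osteopontin, a secreted phosphoprotein that acts as a cytokine) had 46.8 and 58.4 against 42.3 and 27.6 in control libraries and did not pass (adjusted p = 0.205), but was called higher at equal library totals (adjusted p = 0.0443). Ptgs2, the inducible cyclooxygenase and a classic partner of Ccl2 in inflamed fibroblasts, was too low to be tested, with 4 and 11 reads in knockdown and 1 and 1 in control libraries. Its scaled read ratio was 6.22, with a wide counting interval of 1.45 to 56.1. Ccl7, Cxcl1, Cxcl5, Il6 and Lif were on the list and were not analysed here, and neither were any of the 5 chemokine genes that lie within 500 kb of Ccl2.

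Of the complement and humoral innate immunity list, on which Ptx3 stands, 4 other genes were tested, and 1 rose and 3 fell (median -2.28, against -0.01 for all genes). Over all genes 15.9% were called higher and 21.6% lower. With the filter at a mean of 20 the list had 1 fall. C3, the central complement protein, had 45.2 and 42.8 normalised counts in knockdown against 21.7 and 8.93 in control libraries and rose 3-fold (adjusted p = 0.0097). The C3 call was lost without knockdown replicate 1 (adjusted p = 0.0554) and without control replicate 2 (0.071), and its rise was 1.99-fold with control replicate 1 as the lone control and 4.53-fold with control replicate 2 as the lone control. C1qtnf6, a secreted protein with a C1q-like domain, had 284 and 210 in knockdown against 1313 and 1234 in control libraries and fell 5.20-fold (adjusted p = 1.36e-07). C1s1, a serine protease of the first complement component, had 6 and 3 reads in knockdown against 37 and 26 in control libraries and fell (adjusted p = 0.00154), with a control to knockdown ratio of 8.44 (4.18 to 19.3). Tnfaip6 (TSG-6), which cross-links hyaluronan and binds Ptx3, had 3 and 2 reads in knockdown against 8 and 22 in control libraries. It fell (adjusted p = 0.0336, control to knockdown ratio 7.23 with interval 2.78 to 23.9), whereas Ptx3 was higher in knockdown. Its call was lost without knockdown replicates 1 (0.0544) and 2 (0.114), without control replicate 2 (0.204) and at equal library totals (0.0525).

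Among 10 tested receptors for inflammatory signals, 2 rose and 1 fell, while 7 missed the threshold (median log2 difference 0.29), beside 15.9% higher and 21.6% lower over all genes. Without any single library other than control replicate 2 the counts were 1 higher and 0 lower, and without control replicate 2 there were 2 lower. Tnfrsf10b, the mouse death receptor for TRAIL, had 213 and 226 normalised counts in knockdown against 137 and 73.0 in control libraries and rose 2.18-fold (adjusted p = 0.00424, or 0.0591 in limma without its mean-variance trend). The chains of the interleukin-17 receptor went opposite ways. Il17ra rose 1.96-fold, to 65.2 ± 0.926 in knockdown against 34.5 ± 15.4 in control libraries (adjusted p = 0.0419), and Il17rc fell 1.57-fold, to 976 ± 18.9 against 1550 ± 352 (adjusted p = 0.0262). Neither call held throughout. The call of Il17ra was lost under 6 of 14 alternatives, among them each knockdown library left out (0.129 and 0.147) and control replicate 1 left out (0.321), and that of Il17rc under 5, among them the same 3 left out (0.0879, 0.0751 and 0.228). The TNF receptor gene Tnfrsf1a, named after its value was seen, had 1359 and 1120 in knockdown against 1880 and 1697 in control libraries and just missed the threshold (adjusted p = 0.0563). The receptors of the 2 cytokines themselves, Ccr2 and Csf1r, were not analysed here.

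Genes listed under the NF-kB pathway, the main route from TNF and interleukin-1 to these mediators, were tested in 16 cases. Of these 1 rose and 3 fell, while 12 missed the threshold (median log2 difference -0.02), against the same 15.9% and 21.6% over all genes. The subunit gene Relb, which acts in the non-canonical arm, had 480 and 431 normalised counts in knockdown against 268 and 256 in control libraries and rose 1.74-fold (adjusted p = 0.00727). The call of Relb was lost without knockdown replicate 1 (0.0756) and without the trend (0.0521). Rela and Nfkb2, named after their values were seen, did not pass, at 1278 and 1969 on average in knockdown against 1424 and 1765 in control libraries (adjusted p = 0.652 and 0.594). Of the genes that fell, Tnip1, an adaptor that restrains NF-kB together with A20, had 219 and 155 in knockdown against 456 and 344 in control libraries and fell 2.14-fold (adjusted p = 0.00161). Nfkbia, the inhibitor IkB-alpha and itself an NF-kB target, had 851 and 668 against 1118 and 1089 in control libraries and fell 1.46-fold (adjusted p = 0.0492). The other gene of the list that fell was Akap8l, whose place in the pathway was not examined here. It fell 1.60-fold (adjusted p = 0.0387). The calls of Nfkbia and Akap8l were lost under 9 and 8 of 14 alternatives (adjusted p = 0.0678 to 0.476 and 0.0536 to 0.32), including for Nfkbia knockdown replicate 2, control replicate 1 or control replicate 2 left out and for Akap8l either knockdown library or control replicate 1 left out. At equal library totals 5 genes of the list were called higher and 1 lower, beside 1299 higher and 603 lower among all 4605 genes. Without the trend the list had 2 higher and 1 lower, beside 501 and 655 over all genes. Leaving out knockdown replicate 1 gave 0 higher, leaving out knockdown replicate 2 gave 1 lower and leaving out control replicate 1 gave 3 higher.

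The list of AP-1, C/EBP and STAT factors, which act beside NF-kB on inflammatory promoters, had calls in both directions. It also holds Egr, Ets and Irf factors, Jak kinases and inhibitors of STAT signalling. Ets1 and Cebpz are among the rises counted here and Socs3 among the falls. Whether Cebpz acts as a C/EBP factor was not examined. Among 23 tested, 6 rose and 5 fell, while 12 missed the threshold (median log2 difference 0.12), with 15.9% higher and 21.6% lower over all genes. Jun, a subunit of AP-1, had 132 and 162 normalised counts in knockdown against 27.6 and 30.0 in control libraries and rose 4.93-fold (adjusted p = 1.05e-05). Atf3, a stress-induced relative of Jun, had 158 and 269 against 31.5 and 58.4 in control libraries and rose 4.72-fold (adjusted p = 3.37e-05). These fold changes were of the size seen for Ccl2 and Ptx3. Cebpb, the C/EBP factor of acute inflammation, had 691 and 876 in knockdown against 453 and 439 in control libraries and rose 1.74-fold (adjusted p = 0.00635), a call lost without knockdown replicate 2 (0.113). Mafg rose 1.73-fold (adjusted p = 0.0125), with the call lost without knockdown replicate 2 (0.0731) and control replicate 2 (0.0821). Stat3, which carries the signal of interleukin-6 type cytokines, had 120 and 128 in knockdown against 291 and 271 in control libraries and fell 2.25-fold (adjusted p = 0.000699). Its inhibitor Pias3 fell 2.02-fold, to 169 ± 2.28 in knockdown against 347 ± 87.4 in control libraries. The AP-1 subunit Jund fell 2.10-fold, to 724 ± 166 against 1540 ± 466, and Stat5a fell 2.09-fold, to 59.4 ± 6.33 against 125 ± 3.80. Adjusted p-values were 0.00274 for Pias3, 0.00176 for Jund and 0.00556 for Stat5a. The call of Stat5a was lost without knockdown replicate 1 (0.0506) and at equal library totals (0.0588). Without knockdown replicate 2 the list had 2 rises, and in limma without the trend it had 3 and lost Cebpb (0.0596), Mafg (0.0708) and Jund (0.0558).

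Factors that bind or degrade AU-rich mRNAs, with the p38 kinase cascade that controls them, were called in both directions too. Among 20 tested, 3 rose and 3 fell, while 14 missed the threshold (median log2 difference -0.08), beside 15.9% higher and 21.6% lower over all genes. Ybx1, a cold-shock protein that coats mRNAs, had 2824 and 3288 normalised counts in knockdown against 1042 and 1270 in control libraries and rose 2.65-fold (adjusted p = 5.79e-05). Cnot4, a ubiquitin ligase linked to the CCR4-NOT deadenylase, had 45.2 and 49.6 against 16.7 and 8.12 in control libraries and rose 3.80-fold (adjusted p = 0.00218). Hnrnpdl, an RNA-binding relative of the AU-rich element factor AUF1, rose 2.86-fold (adjusted p = 0.00312, or 0.0865 without knockdown replicate 2). Dusp10, a phosphatase that switches off p38 and JNK, had 25.8 and 28.5 in knockdown against 61.0 and 78.7 in control libraries and fell 2.5-fold (adjusted p = 0.00522). Downstream of p38, the kinase genes Mknk2 and Mapkapk2 fell 1.60-fold and 1.48-fold (adjusted p = 0.0235 and 0.0392). Those calls were lost under 4 and 10 of 14 alternatives (0.116 to 0.238 and 0.0596 to 0.435), for Mknk2 with knockdown replicate 2 or control replicate 1 left out and for Mapkapk2 with any library left out. Equal library totals gave 6 rises and 1 fall on this list, beside 1299 rises and 603 falls among all 4605 genes. In limma without the trend the list had 1 fall.

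**Figure D3:**
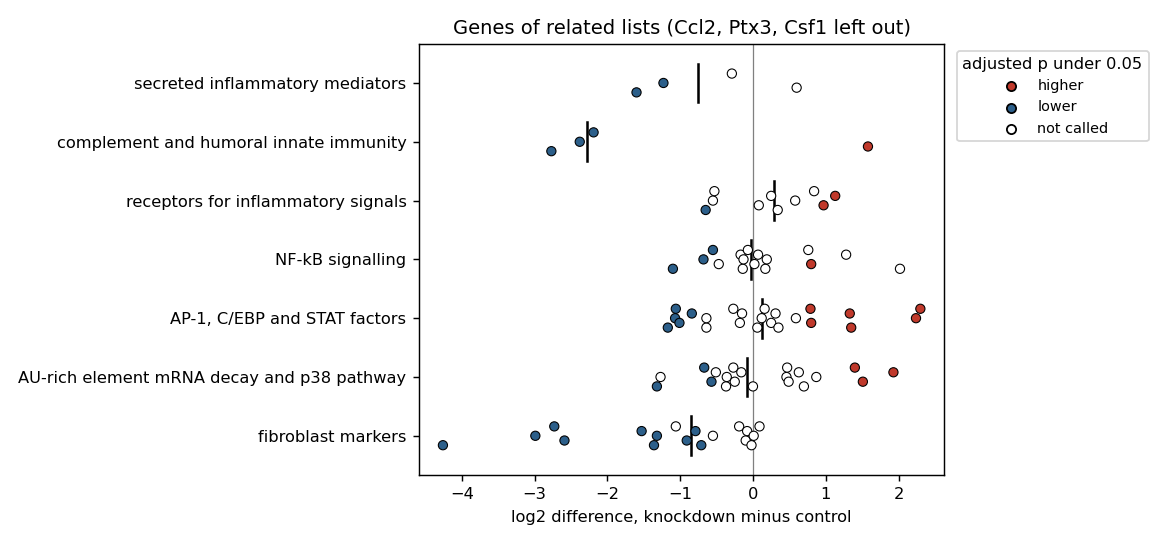
Log2 difference (knockdown minus control) of each tested gene on 7 lists, without Ccl2, Ptx3 and Csf1; filled points passed an adjusted p of 0.05 (red higher, blue lower), open points did not, and black bars are list medians. The AP-1 list holds the highest rises (Jun 2.30, Atf3 2.24), and the fibroblast markers lie mostly below 0.

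The fibroblast markers, on which the identity of the cells was checked, were lower in 10 and higher in none of 18 tested cases (median -0.85). Over all genes 15.9% were called higher and 21.6% lower, and in the highest class of mean normalised count 12.1% and 40.5%. Not all markers were in that class, and in the lower classes 5.56% to 26.7% of genes were called lower. The largest falls were those of Cd248, at 55.9 ± 21.4 normalised counts in knockdown against 1062 ± 249 in control libraries (19.1-fold), Col6a1 (7.94-fold), S100a4 (6.64-fold) and Col6a2 (6.01-fold), with adjusted p-values of 2.06e-08, 3.74e-08 and 8.98e-08 for the last 3 and 2.92e-09 for Cd248. Cd74, the single macrophage marker analysed, fell 3.43-fold to 26.8 ± 3.26 in knockdown against 97.2 ± 36.5 in control libraries (adjusted p = 0.000553). Ccl2, Ptx3 and Csf1 were higher in the same libraries. In bulk RNA fewer cells of a kind and less RNA per cell cannot be told apart, and the part of such shifts in the values of the 3 genes was not tested.

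Across the 4 libraries the profile of each gene was set beside those of 3964 other genes with a mean of at least 20, by the Euclidean distance between log2 values centred on each gene's mean. Nearest to Ccl2 were Mrps22 (a mitochondrial ribosomal protein, distance 0.183), Fam188a (0.209), Thap1 (a zinc finger factor, 0.256), Hmga2 (a chromatin architectural protein, 0.285) and Pus7 (a pseudouridine synthase, 0.311). They shared its uneven control pair. Mrps22 had 120 and 113 normalised counts in knockdown against 20.7 and 36.5 in control libraries. Nearest to Ptx3 were Nars (asparaginyl-tRNA synthetase, 0.048), Crls1 (cardiolipin synthase, 0.066), Rassf1 (0.131), Lyar (0.147) and Lrpprc (0.187). Nars, with 947 and 1306 in knockdown against 237 and 294 in control libraries, had the same 4.2-fold difference as Ptx3. Nearest to Csf1 were Cct2 (a chaperonin subunit, 0.052), Gpalpp1 (0.059), Hes1 (a transcriptional repressor downstream of Notch, 0.084), Epb4.1l4a (0.088) and Slc1a4 (a neutral amino acid transporter, 0.099). Cct2 had 1535 and 1573 in knockdown against 756 and 685 in control libraries, a 2.16-fold difference. None of these 15 genes was on any of the 10 lists, but the lists hold a small part of the 4878 genes, so nothing follows from this. The genes of each set were found by their likeness over 4 values and get no test.

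**Figure D4:**
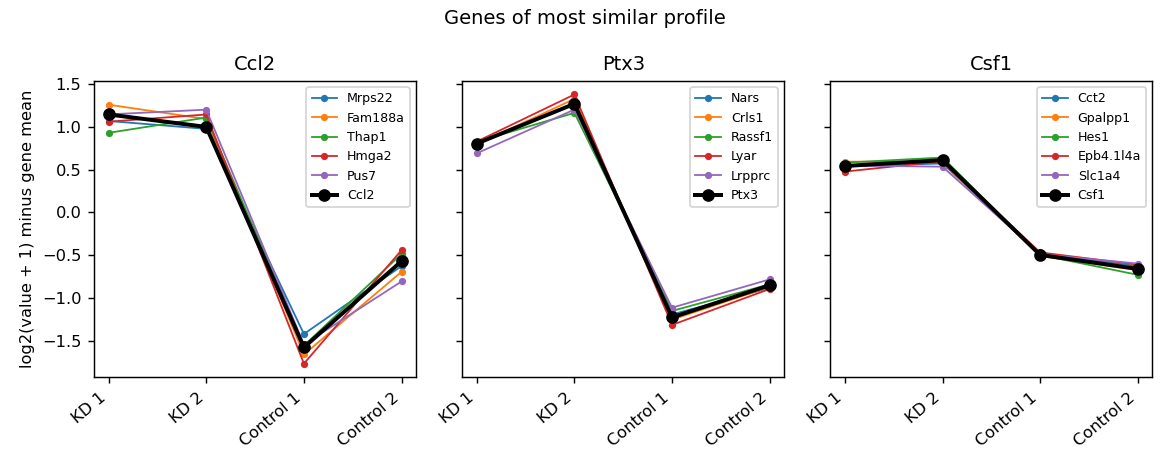
Log2(normalised count + 1) minus the gene's mean over the 4 libraries, for Ccl2, Ptx3 and Csf1 (black) and the 5 genes nearest to each (coloured), in 2 knockdown (KD) and 2 control libraries. The Ccl2 set has its lowest value in control replicate 1, and the Csf1 set is flat within each group and steps by about its difference of 1.15 between them.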

How the data were processed

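The authors deposited a signal, a table of normalised counts per gene, for 2 knockdown and 2 control libraries, and columns were matched to samples by their titles. Per the submitters' processing notes the build was mm10 and the tools, listed without roles, were STAR, HTSeq, DESeq2, cutadapt 1.8.3 and bcl2fastq 2.17.1.14. Scaling factors, gene selection and the use of molecular identifiers and strand are not stated. All values were whole multiples of 1 step per column (100% within 0.01 read), which gave reads. The test was limma 3.58.1 (R 4.3.3, mean-variance trend) on log2(normalised count + 1) for the 4605 genes with a mean of at least 5, with Benjamini-Hochberg adjustment and a threshold of 0.05, tested on simulated data first. Members and lists were chosen with earlier results of these data known, and lists hold genes absent from the table. Named genes were all tested mediators, up to 4 called genes of smallest p per other list and direction, and the 5 nearest profiles. Alternatives tried were TMM scaling, equal library totals, a pseudocount of 0.5 or 5, a filter at 20 or none, no trend, a replicate block, edgeR 4.0.16 and DESeq2 1.42.0 on recovered reads, and each library left out, where a lone library is assumed to vary like the other group. No exon of another gene overlaps the last 1000 bases of Ccl2, Ptx3 or Csf1 in GENCODE M21.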

Additional observations from a re-analysis of the deposited data

How the results depend on the processing

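The log2 differences of Ccl2, Ptx3 and Csf1 kept their sign under all 14 alternatives, which is no measure of support. Their groups did not overlap, so leaving out a library could not reverse a sign. Dropping the trend or adding the replicate block leaves the differences unchanged. With a library left out the differences ran from 1.64 to 2.64 for Ccl2, from 1.84 to 2.30 for Ptx3 and from 1.07 to 1.24 for Csf1. At equal library totals those of Ptx3 and Csf1 became 2.42 and 1.51, 1 further mediator (Spp1) was called higher, and the median of all genes moved to 0.34. Relative to that median the 3 differences were 2.14, 2.08 and 1.17. Over all genes, 733 were higher and 996 lower, against 1299 and 603 at equal library totals (68.3% of calls higher against 42.4%), and 655 were lower without the trend. Without one library the genes called higher numbered 438 to 758, the lowest without knockdown replicate 2. Same-numbered libraries deviated with a correlation of -0.129. The replicate block called 641 genes higher and 918 lower, and a crossed pairing, chosen after seeing the data, 891 and 1154. Of 32 called list genes that are named with their values, 17 kept their call under every alternative run on them. Of 252 counts for the other lists, 35 differed from the main count by over 1.5 times, 7 of them at equal library totals and 14 with a library left out. The 252 include the endothelial and epithelial lists, which had no gene analysed here, so that their counts were fixed at 0. The causes were not tested. Depth limits the precision of genes with few reads, among them Ccl2 (11 reads in control replicate 1), C1s1 (3 in knockdown replicate 2), Tnfaip6 (2 in knockdown replicate 2) and Ptgs2 (1 in each control library).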

Other observations

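Genes near the 3 loci were examined by position, a choice made after the main results were seen. Within 500 kb of Csf1 the table held 7 of 27 protein-coding genes, of which Gstm5, a glutathione transferase 135 kb away, fell, at 45.8 ± 4.33 normalised counts in knockdown against 124 ± 41.7 in control libraries (log2 difference -1.38, limma, adjusted p = 0.00178), and none rose. Near Ptx3 the table held Ccnl1, a cyclin of the splicing machinery 262 kb away, which rose to 57.1 ± 13.4 in knockdown against 28.2 ± 3.71 in control libraries (log2 difference 0.98, adjusted p = 0.0386). Over all genes 15.9% were called higher and 21.6% lower, so these few calls set neither locus apart. The calls of Gstm5 and Ccnl1 were not followed under the alternatives. None of the 9 protein-coding genes within 500 kb of Ccl2, which include Ccl7, Ccl8, Ccl11 and Ccl12, was analysed here.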
